A study of Homo sapiens with 16 samples.

Results

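Histone H3 acetylated at lysine 27 (H3K27ac), a mark of active promoters and enhancers, was described at 5 genes that control or repress fetal globin, BCL11A, ZBTB7A, LIN28B, IGF2BP1 and IKZF1, out of 19970 protein-coding genes. Members were taken by name, and each locus was the gene body with 10 kb on either side in GRCh38. The data were 14 lists of ChIP-seq peaks from K562, a human erythroleukemia cell line derived from chronic myelogenous leukemia, each list called by the authors from a single library. A peak was counted where the -log10 of its q-value was at least 2, a q-value of at most 1%. The 5 windows held 48 to 73 such peaks per list, out of 64083 to 82143 in the whole list.

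The fixed-antibody arm held 7 libraries made with 0.25 µg of anti-H3K27ac antibody and 7 amounts of chromatin from 0.31 to 20 µg in a 2-fold series, measured as DNA content and called DNA_chrom. The titer, the antibody amount relative to chromatin with the optimum set to 1, was 32, 16, 8, 4, 2, 1 and 0.5 in these libraries. The normalized arm held 7 libraries from the same amounts of DNA_chrom with the antibody scaled to titer 1. All 14 came from the same cell line. A library is named by its DNA_chrom and titer, as in 0.31-T32, or by its titer alone where that is clear, and the libraries 10-T1a (fixed) and 10-T1b (normalized) share both. Each condition was a single library, so trends were tested over libraries, and the p-values measure the spread between these libraries, which may be technical. The arms also had separate inputs, from which an effect of the arm cannot be told apart. In the fixed-antibody arm the same holds for titer and DNA_chrom, which move together.

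Adult red cells silence the gamma-globin genes mainly through the zinc finger repressors BCL11A and ZBTB7A (LRF), which bind the gamma-globin promoters and recruit the NuRD corepressor complex. LIN28B, an RNA-binding protein of fetal cells, blocks maturation of let-7 microRNAs, and IGF2BP1, an mRNA-binding protein also of fetal cells, lowers BCL11A when it is forced into adult erythroid cells. IKZF1 (Ikaros), a zinc finger factor best known from lymphoid development, also acts at the beta-globin locus. An intron 2 enhancer of BCL11A, active in adult erythroid cells, is the target of gene-editing therapy for sickle cell disease, and K562 cells are known for embryonic and fetal rather than adult globin.

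The label was checked against its markers. The erythroid markers GATA1, TAL1, KLF1, EPOR, ALAS2, TFRC and HBG2 each had a peak within 5 kb of the transcription start site (TSS) in all 14 lists. Among lymphoid markers, CD3E, PAX5 and RAG1 had none in any list, while CD79A had a peak near the TSS in all 14. Of 4 myeloid markers, SPI1 and LYZ had one in all 14 lists, CD14 in 12 and CSF1R in none.

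The promoter sequences of the loci differed in base composition and in whether a peak lay on them. RefSeq (GRCh38.p14) gave start sites for 4 of the 5 genes, 12 in all, and none for IGF2BP1. The 250 bases before the start site are shown for the main start of BCL11A, which had no peak in any list, for the main starts of ZBTB7A and IKZF1, which had one in 14 and 13 lists, and for both starts of LIN28B, which differ from each other. They run 5′ to 3′ along the gene. Capitals mark every match, on either strand, to the GATA motifs AGATAA and TGATAA, to the BCL11A motif TGACCA, to the CCAAT box or to the TATA box TATAAA.
BCL11A, chr2:60553655-60553904, minus strand: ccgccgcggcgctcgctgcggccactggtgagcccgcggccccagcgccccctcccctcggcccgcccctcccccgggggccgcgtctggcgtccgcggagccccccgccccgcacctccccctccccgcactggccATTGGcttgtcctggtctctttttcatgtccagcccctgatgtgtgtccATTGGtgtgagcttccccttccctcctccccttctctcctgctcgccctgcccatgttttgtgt
ZBTB7A, chr19:4066900-4067149, minus strand: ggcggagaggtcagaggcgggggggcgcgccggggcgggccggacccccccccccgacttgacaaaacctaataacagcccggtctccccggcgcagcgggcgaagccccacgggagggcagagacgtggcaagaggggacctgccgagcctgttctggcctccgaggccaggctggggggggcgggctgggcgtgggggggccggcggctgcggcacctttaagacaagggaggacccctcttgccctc
LIN28B upstream start, chr6:104940715-104940964, plus strand: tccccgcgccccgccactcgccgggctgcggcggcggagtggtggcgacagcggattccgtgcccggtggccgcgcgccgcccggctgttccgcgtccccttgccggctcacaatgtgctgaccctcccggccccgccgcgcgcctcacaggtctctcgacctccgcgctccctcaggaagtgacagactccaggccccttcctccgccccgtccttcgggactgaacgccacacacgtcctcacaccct
LIN28B downstream start, chr6:104956857-104957106, plus strand: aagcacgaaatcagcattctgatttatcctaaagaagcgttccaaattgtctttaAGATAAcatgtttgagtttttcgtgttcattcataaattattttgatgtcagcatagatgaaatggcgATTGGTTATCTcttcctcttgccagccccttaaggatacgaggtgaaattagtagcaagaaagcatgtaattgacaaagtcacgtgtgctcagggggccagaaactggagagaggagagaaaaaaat
IKZF1, chr7:50304466-50304715, plus strand: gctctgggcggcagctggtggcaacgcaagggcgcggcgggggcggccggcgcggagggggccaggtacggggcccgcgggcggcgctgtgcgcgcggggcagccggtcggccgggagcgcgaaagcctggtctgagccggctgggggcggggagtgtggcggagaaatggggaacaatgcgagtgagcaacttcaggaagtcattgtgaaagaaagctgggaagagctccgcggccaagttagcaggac

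The downstream LIN28B promoter held 2 AGATAA matches, 1 on either strand, and 1 CCAAT match that adjoins the second of them on the same strand. AGATAA occurs in 7.09% of the 22131 promoters of the same length in this table, TGATAA in 4.93%, TGACCA in 7.95%, CCAAT in 32.7% and TATAAA in 9.0%. The 250 bases before the main BCL11A start held 2 CCAAT matches, and those of ZBTB7A, IKZF1 and the upstream start of LIN28B held no match to these letters. The E-box CANNTG, left in lower case, occurs in 58.1% of promoters and was found 1 time each in the IKZF1 and downstream LIN28B sequences and in none of the others. The downstream LIN28B promoter was the one low in G and C, 38.4% against 71.2% to 74.4% in the others shown and a median of 62% over all promoters.

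A peak shared at least 1 base with the downstream LIN28B promoter, both ZBTB7A promoters and 1 of 3 IKZF1 promoters in all 14 lists, and 23.3% of all promoters had one in all 14. The main IKZF1 promoter had a peak in 13 lists, the exception being a fixed-antibody list. The other 7, which were all 5 BCL11A promoters, the upstream LIN28B promoter and the start of IKZF1 14332 bp into the gene, had none in any list, as had 45.7% of all promoters. The main BCL11A promoter has 21 CG pairs and the upstream LIN28B promoter 33, and of the 9190 promoters with at least 20 CG pairs, 27.5% had no peak in any list.

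BCL11A had no peak. Its window (chr2:60440520-60563924, minus strand, main TSS at 60553654) held 0 peaks in each of the 14 lists, at any titer and any amount of DNA_chrom. The same was true of the full deposited lists, whose -log10 q reaches down to 1.3. The enhancer area, taken as 50 to 65 kb downstream of the TSS (chr2:60488654-60503654), lies inside intron 2 (chr2:60468834-60545970) and likewise held 0 peaks in each list. Over all 14 lists together the last peak below the gene ended at base 59098217 of chromosome 2 and the first above it began at 60756296, which leaves 1658078 bp free of peaks. Only 1 other gene annotated as protein-coding, LOC124906010, lies in that stretch.

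The nearest peak lay 203 kb upstream of the BCL11A TSS in each list, at PAPOLG, a poly(A) polymerase gene. In single lists the free stretch was 1.66 to 2.02 Mb long. The stretch over all 14 lists was among the longest, since only 230 of 170046 stretches between peaks were longer. That count takes in every gap between peaks on a chromosome, centromeres and unassembled sequence included. A window without a peak is not particular to BCL11A, since 25.5% of the 19970 genes had none in any list. Peaks are numbered by the caller, and no number was missing in any of the 14 lists. A list without a peak shows that no enrichment passed the caller's threshold, not that acetylation was absent.

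**Figure D1:**
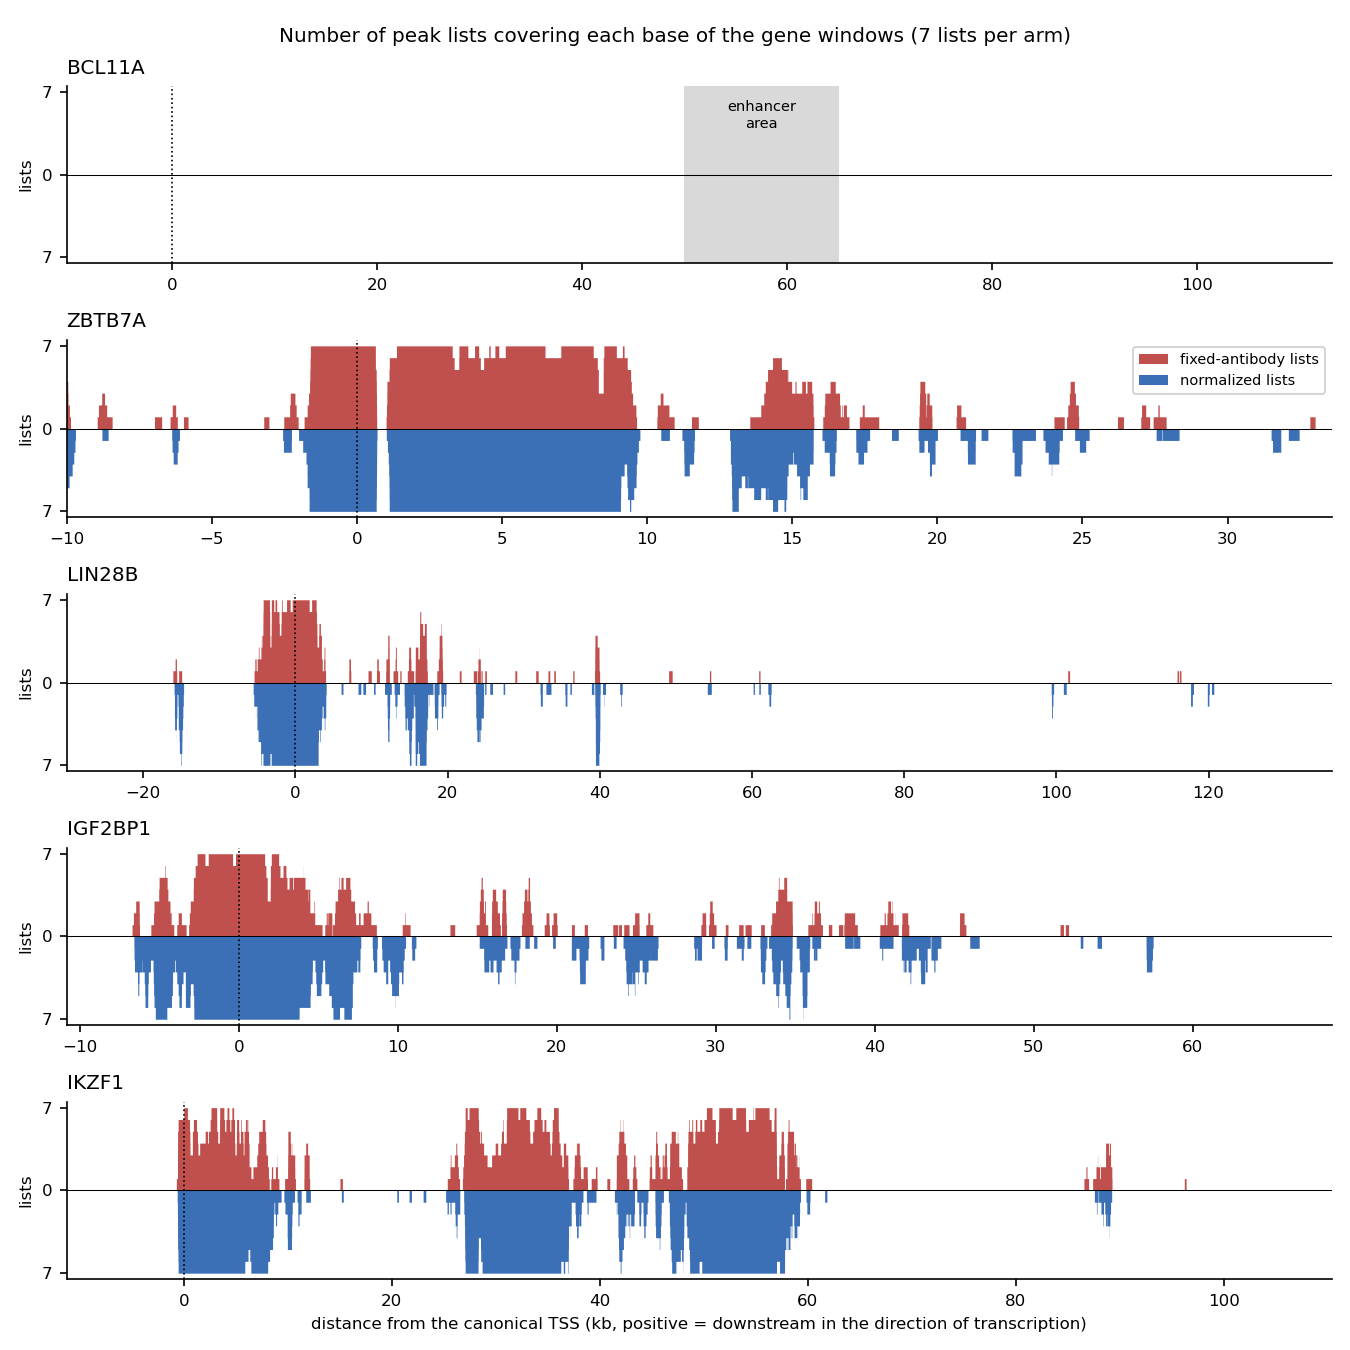
Number of peak lists (y axis, 7 fixed-antibody lists upward in red, 7 normalized lists downward in blue) with a peak over each base of the windows of the 5 genes, by distance from the main TSS in kb (x axis, dotted line at 0). BCL11A is empty, also in the grey enhancer area 50 to 65 kb downstream of its TSS, while the other 4 genes have stretches around or just downstream of the TSS that all 7 lists of an arm cover.

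ZBTB7A (chr19:4043303-4066899, minus strand), the repressor known as LRF, had the largest share of its window under peaks of the 5, in the shortest window. In the 14 lists its 43.6 kb window merged into 27 regions, 3 of which had a peak in all 14. A further region crosses the upstream edge of the window, and 9 lists had a peak of it that reached into the window. Followed past that edge, as chr19:4076595-4079656, it had a peak in all 14, with a strongest fold enrichment of 5.19 to 8.25. The region at the TSS, chr19:4066204-4068907, was a single peak of 2249 to 2693 bp in every list. Next to it in intron 1 lay a domain of 8746 bp, chr19:4057148-4065893, and in intron 2 a weaker region of 2904 bp, chr19:4051155-4054058, with a strongest fold enrichment of 3.54 to 7.27.

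The TSS peak of ZBTB7A kept its length within that range, while its fold enrichment, the ratio of ChIP to background signal that the peak caller gives, was 11.9, 29.5 and 30.7 at titers 32, 1 and 0.5. Normalized lists gave 18.2 to 27.2. Among all peaks of a list the strongest peak within 5 kb of the TSS ranked between 4 (10-T1a) and 1999 (20-T1) by fold enrichment. Its summit lay 160 to 429 bp downstream of the TSS in 13 lists, and at 1613 bp, in the intron 1 domain, in the library of titer 8.

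The intron 1 domain was broken up at high titer. It was called as 7, 3, 4 and 3 peaks at titers 32, 16, 8 and 4, and as 1 peak of 8324 to 8605 bp in 5-T2, 10-T1a and 20-T0.5. In the normalized arm it was 1 or 2 peaks in every list, and the longest peak was 7981 to 8523 bp. The bases under a peak in the domain were 6381 bp in 0.31-T32 and 8605 bp in 10-T1a. Downstream of the gene the window reaches into PIAS4, a SUMO ligase gene, and no region downstream of ZBTB7A had a peak in more than 6 lists.

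LIN28B (chr6:104937026-105083332, plus strand), the let-7 blocker, had 44 merged regions in its 166 kb window, 22 of them in only 1 list and 2 in all 14. The main domain, chr6:104951544-104961144, is 9601 bp long and spans the downstream TSS at 104957107, whose promoter is the one with the AGATAA matches. The other, chr6:104971380-104975172, lies in intron 2 with its strongest summit 16.7 kb downstream of the TSS. The strongest fold enrichment of the main domain was 5.32 at titer 32, 16.3 at titer 1 and 12.6 at titer 0.5, against 8.6 to 19.7 among normalized lists.

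At the upstream LIN28B start a peak was called in some libraries only. The region chr6:104940990-104942403, just downstream of that start site, had a peak in each of the 7 normalized lists. In the fixed-antibody arm it had one in 2 lists, 5-T2 and 10-T1a. The strongest fold enrichment of the region was 5.53, in the normalized library 5-T1. A site in intron 2, chr6:104996402-104997157, was likewise called in every normalized list and in the 4 fixed-antibody lists of titer 4 or less, with a fold enrichment of up to 9.42. Within the main domain the strongest summit moved between lists. It lay 653 to 1554 bp downstream of the TSS in 8 lists. In the normalized libraries 0.31-T1, 5-T1, 10-T1b and 20-T1 it lay upstream, at -3831, -3825, -2948 and -2937 bp, and in the libraries of titer 32 and 8 at -2504 and -242 bp.

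IGF2BP1 (chr17:48996558-49056145, plus strand), the fetal mRNA-binding protein, had 36 merged regions in its 79.6 kb window, of which 1 had a peak in all 14 lists. That region, chr17:48990675-49006102, is 15428 bp long and spans the TSS at 48997385, with its strongest summit in exon 1. At titers 32, 1 and 0.5 peaks covered 5945, 11045 and 12389 bp of it, and 9373 to 14094 bp at the constant titer of the normalized arm. The strongest fold enrichment there was 8.67 at titer 32 and 23.2 at titer 0.5, against 14.9 to 23.7 in the normalized lists. The widest IGF2BP1 peak, 13794 bp in 20-T1, covered nearly the whole domain, which other lists broke into 4 to 9 peaks. Adjoining it in intron 2, chr17:49006363-49008161 was called in every normalized list, but among the fixed-antibody lists in only 10-T1a and 20-T0.5. The opposite held for chr17:49015165-49015886, also in intron 2, which was called in 6 fixed-antibody lists and 1 normalized list. In all, 8 IGF2BP1 regions had peaks in fixed-antibody lists only and 9 in normalized lists only. Of the 36 regions, 10 had a peak in 1 list and so could only fall in 1 arm. How often regions over the whole genome split between the arms in these ways was not counted, here or for LIN28B.

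IKZF1 (chr7:50303455-50405101, plus strand), Ikaros, had the fewest regions of the 4 genes with peaks, 19 in a 122 kb window, but the most bases in them, 48.8 kb. Of these regions 4 were in all 14 lists. One lies at the TSS and in intron 1 (chr7:50304007-50314077, 10071 bp). The other three have their strongest summits in intron 3, at chr7:50331505-50343691 (12187 bp), chr7:50346117-50349344 (3228 bp) and chr7:50349450-50364007 (14558 bp). The strongest peak of the window lay at the last of these, 52195 to 56104 bp downstream of the TSS, in 12 of the 14 lists. In all 14 lists the strongest peak within 5 kb of the TSS had its summit inside the gene, 967 to 3859 bp downstream.

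The IKZF1 intron 3 domain chr7:50331505-50343691 had a higher fold enrichment in the normalized lists. Its strongest summit lay 34010 to 34478 bp downstream of the TSS in 11 lists, and at 35994, 28394 and 27746 bp in 0.31-T32, 5-T2 and 20-T0.5. Its strongest fold enrichment was 6.57, 7.16, 7.16, 7.58, 7.75, 9.57 and 9.09 in the fixed-antibody lists from titer 32 to 0.5, and 13.9 to 17.9 in the normalized lists, so the arms did not overlap. At the same titer and DNA_chrom, 10-T1b had 1.63 times the fold enrichment of 10-T1a, a ratio that 93.1% of the 18467 regions called in every list did not exceed. The median of that ratio was 0.995. Every normalized list lay above every fixed-antibody list in 5.73% of the 18467 regions and in 1 of the 11 that overlap the windows of these genes, this one. It was singled out after its values were seen, and no test was run on it.

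**Figure D2:**
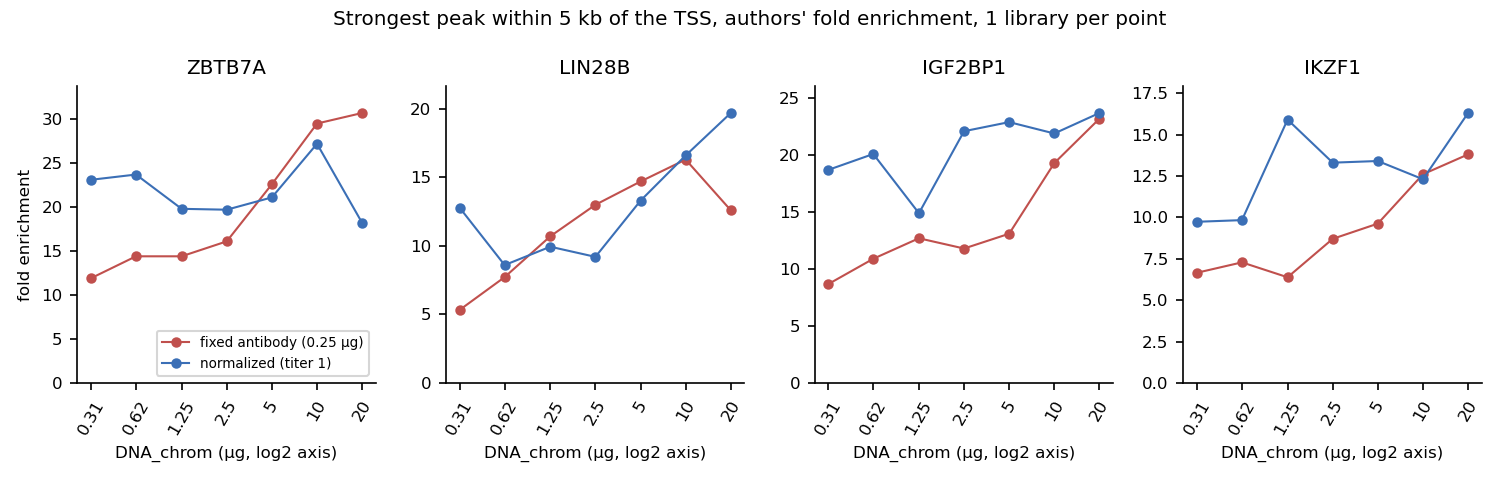
Fold enrichment, as the authors give it, of the strongest peak within 5 kb of the main TSS (y axis, linear from 0) in each library by DNA_chrom (x axis, log2 scale), 1 point per library, fixed-antibody arm in red and normalized arm in blue. ZBTB7A climbs from 11.9 to 30.7 in the fixed-antibody arm, and the red points of LIN28B are highest, at 16.3, in 10-T1a.

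As a share of its window, the order of the loci was the same in all 14 lists. Peaks covered 21.8% to 39.1% of the ZBTB7A window, 12% to 29.9% of IKZF1, 9.12% to 26.8% of IGF2BP1, 4.21% to 10.5% of LIN28B and 0 of BCL11A. ZBTB7A was above IKZF1, IKZF1 above IGF2BP1 and IGF2BP1 above LIN28B in 14 of 14 lists, although the ranges of neighbours in that order overlap. The share depends on the window, which is shortest at ZBTB7A (43.6 kb) and longest at LIN28B (166 kb). In bases, peaks covered more of IKZF1 (14539 to 36313 bp) than of ZBTB7A (9489 to 17045 bp) in each list.

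The titer trend asked how much of each locus was called as chromatin was reduced under a fixed amount of antibody. The covered length, the bases of the window under a peak, was lower at higher titer at all 4 genes with peaks. For ZBTB7A it was 9489, 12311, 12063, 14485, 14466, 14884 and 13930 bp from titer 32 to 0.5. For LIN28B it was 6998, 7617, 7718, 10429, 14676, 14083 and 11710 bp. The lowest value of both belonged to 0.31-T32 and the highest to 10-T1a for ZBTB7A and 5-T2 for LIN28B. For IGF2BP1 the covered length was 7259, 7616, 9980, 12627, 15117, 16406 and 17886 bp, higher at each step down in titer. For IKZF1 it was 14539, 21231, 21320, 27286, 34397, 35726 and 35398 bp. From 0.31-T32 to 10-T1a the covered length grew 1.57-fold at ZBTB7A, 2.01-fold at LIN28B, 2.26-fold at IGF2BP1 and 2.46-fold at IKZF1.

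Pearson's r of the covered length with log2(titer) was -0.989 for IGF2BP1 (exact permutation test, n = 7, p = 0.000397, adjusted p = 0.00916), the smallest p that the orders of 7 libraries allow. For IKZF1 it was -0.962 (exact permutation test, n = 7, p = 0.00119, adjusted p = 0.0108). ZBTB7A had an r of -0.834 (exact permutation test, n = 7, p = 0.0171, adjusted p = 0.0379), and LIN28B one of -0.83 (exact permutation test, n = 7, p = 0.0254, adjusted p = 0.049). The adjustment, by Benjamini and Hochberg, ran over the 14563 genes with a peak in at least 1 fixed-antibody list. By rank, Spearman's rho for IGF2BP1, IKZF1, ZBTB7A and LIN28B was -1, -0.964, -0.714 and -0.857 (exact permutation tests, p = 0.000397, 0.00278, 0.0881 and 0.0238). Leaving out the pair of libraries farthest from the median gave an r of -0.994, -0.961, -0.89 and -0.932 in the same order (exact permutation tests, p = 0.0167, 0.0167, 0.0667 and 0.05).

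All 4 of the 4 genes tested passed at adjusted p under 0.05 with a falling covered length, as did 7554 of the 14563 genes, 51.9%, while 27 genes rose. The median r over all genes was -0.833. Of the 12422 genes with a peak in every fixed-antibody list, as these 4 had, 7619 fell. BCL11A, with no peak, had no value to test. Relative to the covered length of the whole list, which itself went from 32.8 Mb in 0.31-T32 to 65.3 Mb in 10-T1a, r turned to 0.904 for ZBTB7A and was -0.0361 for LIN28B, -0.846 for IGF2BP1 and -0.777 for IKZF1. None of these 4 shares passed (exact permutation tests, adjusted p = 0.0817, 0.97, 0.0959 and 0.0974), and the median r of the share over all genes was 0.0701, with 287 genes falling and 417 rising at adjusted p under 0.05.

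Some of these calls were lost when 1 library was left out, which also cut the number of genes called over all genes from 7554 to between 1670 and 6112. The call of IGF2BP1 held whichever library was left out (exact permutation tests, adjusted p 0.0194 to 0.0436), and that of IKZF1 was lost without 0.31-T32 (r = -0.94, exact permutation test, adjusted p = 0.0541). ZBTB7A passed without 20-T0.5 (exact permutation test, adjusted p = 0.0349) but not without the library of titer 32, 16, 8, 4, 2 or 1 (exact permutation tests, adjusted p = 0.19, 0.062, 0.0615, 0.0726, 0.0754 and 0.0973), with an r of -0.733 to -0.879. LIN28B did not pass without the library of titer 32, 16, 8, 4 or 1 (exact permutation tests, adjusted p = 0.144, 0.0996, 0.0817, 0.12 and 0.102), with an r of -0.772 to -0.831.

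**Figure D3:**
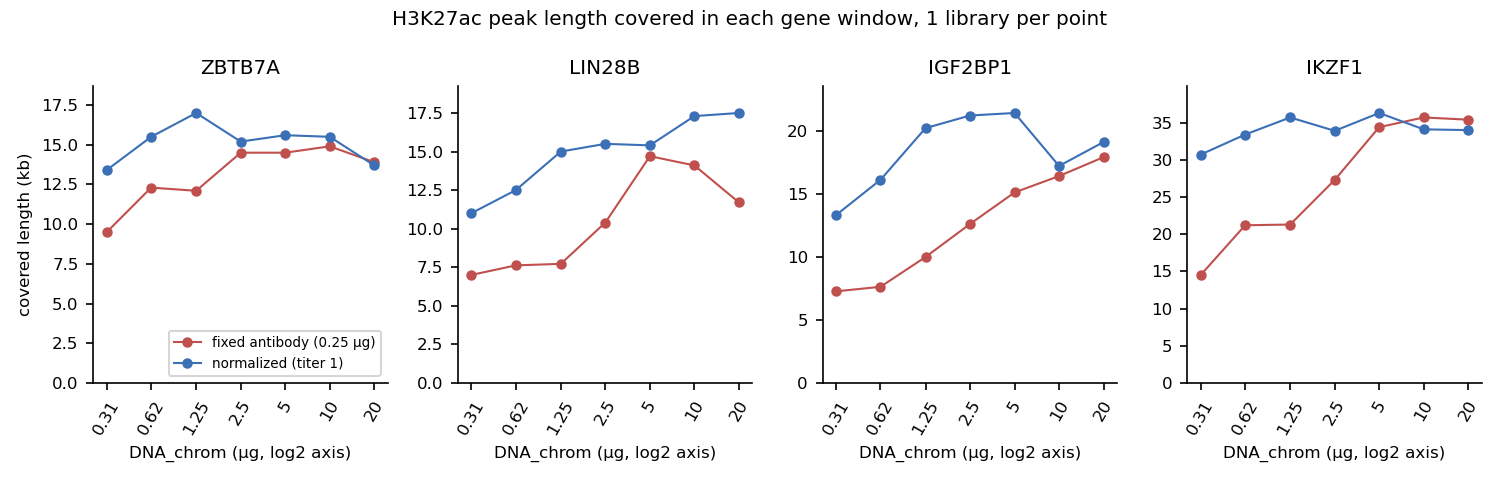
Covered length in kb (y axis, linear from 0) of the windows of the 4 genes with peaks, by DNA_chrom (x axis, log2 scale), 1 point per library, fixed-antibody arm in red, where the titer falls from left to right, and normalized arm at titer 1 in blue. The red points rise from 9.49 to 14.9 kb at ZBTB7A and from 14.5 to 35.7 kb at IKZF1 between 0.31-T32 and 10-T1a, and the blue points start higher.

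The longest peak of the window was 2258 bp in 0.31-T32 and 8605 bp in 10-T1a at ZBTB7A, 2606 and 9362 bp at IKZF1, 2970 and 7049 bp at LIN28B, and 4246 and 7275 bp at IGF2BP1. Its r with log2(titer), a measure chosen after the values were seen, was -0.931 for ZBTB7A (exact permutation test, adjusted p = 0.0311) and -0.932 for IKZF1 (exact permutation test, adjusted p = 0.0272). LIN28B (r = -0.85, adjusted p = 0.0596, exact permutation test) and IGF2BP1 (r = -0.777, adjusted p = 0.0845, exact permutation test) did not pass. Thus 2 of 4 genes fell, as did 30.3% of all genes tested. The number of peaks gave no such calls. At IKZF1 there were 33 peaks in 0.62-T16, the most of any list, and 19 in 20-T0.5, while at LIN28B there were 8 at titer 32 and 16 at titer 2, and the trend in number passed at none of the 4 genes (exact permutation tests, adjusted p 0.338 to 0.838), nor at any of the 14425 genes tested.

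**Figure D4:**
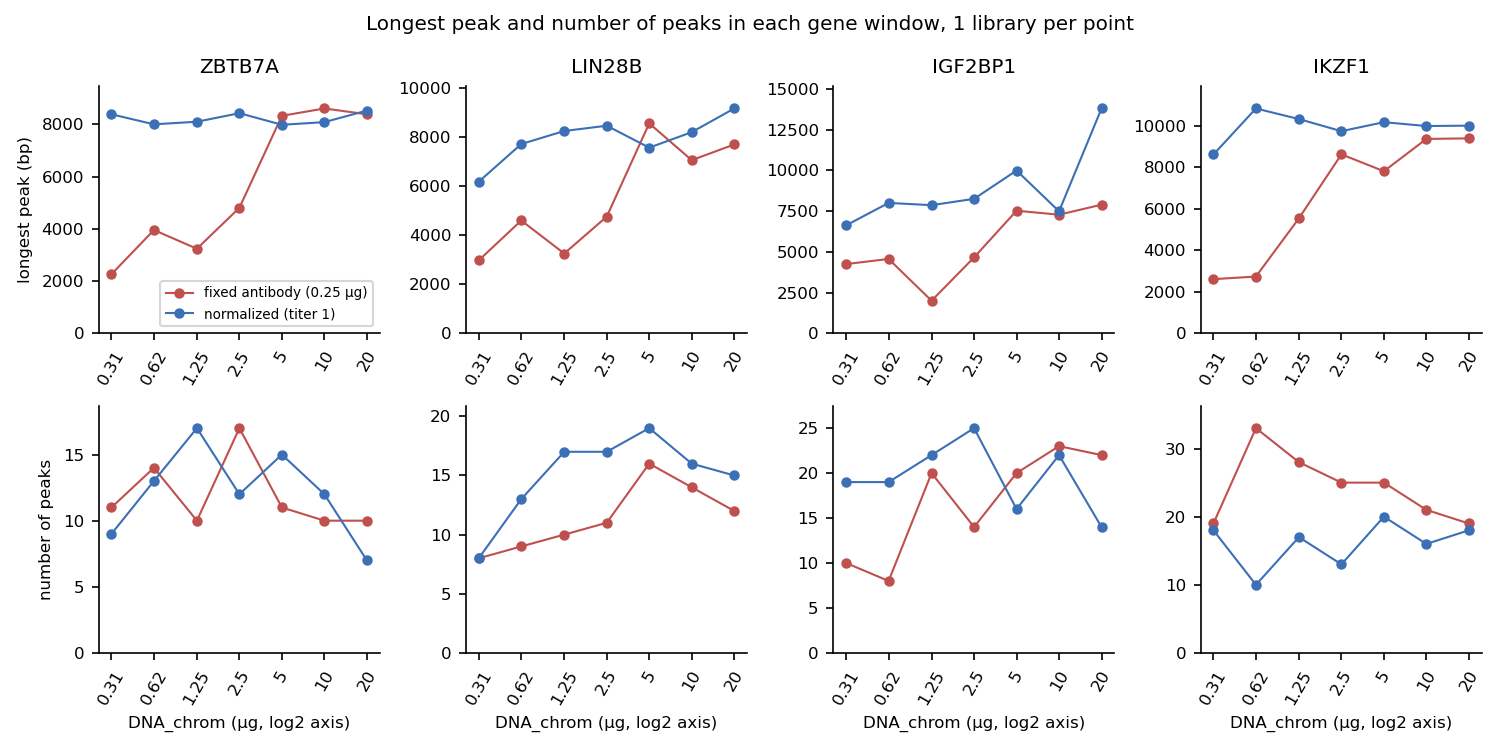
Longest peak in bp (upper row) and number of peaks (lower row) in the windows of the 4 genes, by DNA_chrom (x axis, log2 scale), 1 point per library, both y axes linear from 0, fixed-antibody arm in red and normalized arm in blue. IKZF1 has its most peaks, 33, in 0.62-T16, where its longest peak is 2733 bp, and its fewest, 10, in 0.62-T1, where the longest is 10829 bp.

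The chromatin trend asked whether the loci changed with DNA_chrom when the titer was held at 1. The antibody amount rose with DNA_chrom in this arm, so the 2 cannot be told apart. LIN28B had the clearest trend of the 4 genes. Its covered length was 11022, 12467, 14991, 15509, 15421, 17281 and 17457 bp from 0.31 to 20 µg, or 1.58 times as much at 20 µg. ZBTB7A stayed between 13361 and 17045 bp, IGF2BP1 between 13285 and 21368 bp and IKZF1 between 30660 and 36313 bp, with the lowest value of each in 0.31-T1. By the paper's mapping results, 0.31-T1 also had the lowest share of uniquely mapped read pairs in this arm. Whether this share bears on the covered length was not tested.

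The r of LIN28B with log2(DNA_chrom) was 0.954 (exact permutation test, n = 7, p = 0.000595, adjusted p = 0.12), its rho 0.964 (exact permutation test, p = 0.00278), and its r without the pair of libraries farthest from the median 0.919 (exact permutation test, p = 0.0333). For IGF2BP1, IKZF1 and ZBTB7A r was 0.537, 0.513 and -0.0152 (exact permutation tests, p = 0.211, 0.239 and 0.971) and rho was 0.464, 0.571 and 0.143 (exact permutation tests, p = 0.302, 0.2 and 0.783). Without the farthest pair their r was 0.221, 0.255 and -0.299 (exact permutation tests, p = 0.667 for each). After adjustment 0 of the 14568 genes tested passed. At an unadjusted p under 0.05, 20.1% of them rose and 8 genes fell, and 1 of the 4 genes described here, LIN28B, rose.

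The matched comparison set the arms side by side at the 6 amounts of DNA_chrom where their titers differed. IGF2BP1 and LIN28B had more bases under a peak in the normalized library in 6 of 6 pairs, by 6795 ± 3166 bp and 4620 ± 2188 bp (mean ± SD, n = 6). IKZF1, by 8292 ± 7077 bp, and ZBTB7A, by 2273 ± 2027 bp, had more in 5 of 6, the exception being 20 µg, where the fixed-antibody library had titer 0.5. At 0.31 µg, where the titers were 32 and 1, the normalized library had 1.41 times the covered length at ZBTB7A, 1.58 times at LIN28B, 1.83 times at IGF2BP1 and 2.11 times at IKZF1. At 5 µg, where the titers were 2 and 1, the ratios were 1.08, 1.05, 1.41 and 1.06.

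An exact sign-flip permutation test gave p = 0.031 for IGF2BP1 and LIN28B, the smallest it allows with 6 pairs, and p = 0.0625 for IKZF1 and ZBTB7A (adjusted p = 0.0736 and 0.112). No gene of 14827 passed after adjustment. Every gene at the smallest p had the adjusted p of 0.0736, so with 6 pairs none could pass. The missing calls therefore do not show that the arms were equal at these genes. At an unadjusted p under 0.05, 41.8% were higher in the normalized arm and 97 genes lower, and 2 of the 4 genes described here were higher. At 10 µg, where both libraries had titer 1, normalized minus fixed was 805 bp for IGF2BP1, 3198 bp for LIN28B, -1647 bp for IKZF1 and 609 bp for ZBTB7A. As a share of the covered length of the list the mean difference turned for ZBTB7A, to -48.2 bp per Mb (exact permutation test by sign flips, p = 0.031, adjusted p = 0.126), and for IKZF1, to -20.1 bp per Mb (exact permutation test by sign flips, p = 0.531).

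The slopes of the 2 arms over DNA_chrom were compared last. Per doubling of DNA_chrom the covered length grew by 3736 bp at IKZF1 in the fixed-antibody arm and by 432.0 bp in the normalized arm. The slopes were 1949 and 740.0 bp at IGF2BP1, 1215 and 1048 bp at LIN28B, and 745.0 and -8.71 bp at ZBTB7A. Exchanging the arms within each amount gave p = 0.0625, 0.281, 0.875 and 0.219 for the difference in slope of IKZF1, IGF2BP1, LIN28B and ZBTB7A (exact permutation test, n = 7). None of these 4 genes passed at an unadjusted p under 0.05. Over all 14881 genes 4.2% were steeper in the fixed-antibody arm at that threshold, and 0 passed after adjustment. A difference in level between the arms adds to the spread of this test, so a p that misses the threshold does not show equal slopes.

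Most other genes of the same pathways also had a lower covered length at higher titer. Of 29 other regulators of fetal globin, 23 had a lower covered length at higher titer at adjusted p under 0.05 and none a higher one, with a median r of -0.928. The strongest trends were those of NFIA (-0.982), a factor of erythroid differentiation, BACH1 (-0.981), a heme-regulated repressor, LMO2 (-0.979), a member of the TAL1 complex, and KLF3 (-0.978), a repressor of the Krüppel-like family. All 29 had a peak in all 14 lists, as had 12268 of all 19970 genes. BCL11A had none in any list, like 25.5% of all genes. Of 13 NuRD subunits, the corepressor partners of BCL11A and ZBTB7A, 11 fell with titer and none rose, led by the histone chaperone subunit RBBP7 (-0.976), MBD3 (-0.97), a methyl-CpG-binding domain protein, and CHD4 and MBD2 (both -0.968), the remodelling ATPase and a methyl-CpG reader.

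Paralogs of the 5 genes were split between loci with and without peaks. Of 10 paralogs, 7 had a peak in all 14 lists and 6 fell with titer, led by IKZF4 (-0.959), IGF2BP2 (-0.943), LIN28A (-0.935) and IGF2BP3 (-0.927), while ZBTB7C and IKZF2 had no peak in any list. BCL11B, the paralog of BCL11A and a T-cell factor, had a peak in 1 list, of 216 bp, a gene named here for its place beside BCL11A after its values were seen. Of 10 let-7 pathway genes, 7 of the 8 tested fell, led by the let-7 target ARID3A (-0.947), the uridylyl transferases TUT7 (-0.943) and TUT4 (-0.895), which act with LIN28 proteins, and the microRNA processing nuclease DROSHA (-0.894). The let-7 targets HMGA2 and IGF2, the latter also a known IGF2BP1 target, had no peak in any list.

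All 5 beta-type globin genes fell with titer, with a median r of -0.974. HBG1 (-0.987) and HBG2 (-0.974), the fetal genes that BCL11A and ZBTB7A repress, had 4264 bp under a peak in 0.31-T32 and 13210 and 12930 bp in 10-T1a, and HBE1 (-0.976), the embryonic gene, 2575 and 7587 bp. HBD (-0.932) had 294 and 4446 bp. HBG1 and HBG2 are near-identical neighbours, between which reads can be split uncertainly, and the windows of these clustered genes overlap, so their values are not independent. These lists, chosen by function, share the 7 libraries with the 5 genes, and 51.9% of all genes fell in the same libraries. Most listed genes had a peak in every list, and of the 12422 genes with one in every fixed-antibody list 7619 fell, with a median r of -0.858.

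**Figure D5:**
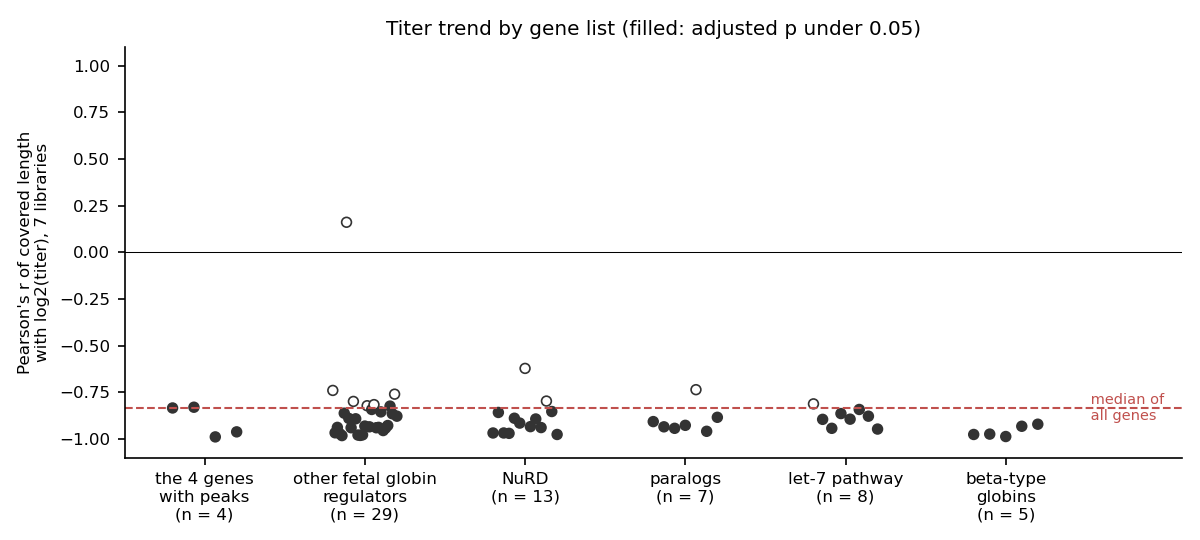
Pearson's r of covered length with log2(titer) over the 7 fixed-antibody libraries (y axis) for each gene of the lists (x axis, n = genes with a peak in at least 1 of these libraries), filled where the adjusted p was under 0.05, with the median of all genes, -0.833, as a dashed line. Most genes of every list lie at or below that line, and ZBTB7A and LIN28B lie on it.

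Across all 14 lists the covered length of the 4 genes moved together, with Pearson's r between pairs of 0.765 (ZBTB7A and LIN28B) to 0.907 (IGF2BP1 and IKZF1). The genes with the most similar profile among those with a peak in all 14 lists were C2orf42 (r = 0.984) and REXO5 (0.982) for IGF2BP1, KLF3 (0.982) and VMP1 (0.981) for IKZF1, CSMD1 (0.982) and RAC1 (0.977) for LIN28B, and GOLGA1 and PDSS1 (both 0.96) for ZBTB7A. These values are a description over 14 libraries that share their cells and antibody, and at most 12267 genes were compared with each.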

How the data were processed

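H3K27ac ChIP-seq of K562 cells was represented by 14 peak lists, 1 per ChIP library. According to the submitters' processing notes and the paper, reads were processed with CASAVA 1.4 and BWA 0.5.9, and peaks were called per library with MACS2. The deposited files give each peak's fold enrichment, a ratio of ChIP to background signal made by the authors' peak caller. The authors also deposited, as -log10 values, a p-value and a q-value per peak, the latter down to 1.3. Here 2 was the minimum for the -log10 q-value. The lists hold no reads, so depth was not analysed here. Coordinates were read as GRCh38, as the labels state. The paper names another build, but contig names are those of GRCh38.

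Covered length was computed over the gene body with 10 kb on either side for 19970 RefSeq genes (GRCh38.p14), with start sites of the canonical transcripts from GENCODE. It was tested by exact two-sided permutation tests in 4 comparisons with Benjamini-Hochberg adjustment over all genes tested, and the tests were tested on simulated data. The members and gene lists were chosen with earlier results of these data known. Of each list, at most 4 genes with adjusted p under 0.05 in the titer trend were named, by the size of r, and those with no peak in any list. The 2 most similar genes were named for each member. The longest peak and the comparison of fold enrichment between arms were added after the data were seen. Alternatives were other q-values, windows and measures, and leaving out each library or amount. The brain libraries and motifs around peak summits were not analysed here, and some cell type markers are not reported here. Python 3.11.15, numpy 2.4.6, scipy 1.17.1, pandas 2.3.3 and matplotlib 3.10.9 were used.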

Additional observations from a re-analysis of the deposited data

How the results depend on the processing

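Each list is a single library without a replicate of its condition, a gene without a peak can hold acetylation below the caller's threshold, and covered length moves with the covered length of the whole list. Of the 4 genes called in the titer trend, 0 passed by number of peaks (0 of 14425 genes in all), 0 by share of the list's covered length (287 of 14563 falling), 2 by Spearman's rho (5039 falling) and 2 by the longest peak (4413 falling), an alternative chosen after seeing the data. LIN28B was also lost with 5 kb on either side, the gene body alone and a linear scale (adjusted p = 0.0512, 0.0665 and 0.0579, exact permutation tests) and ZBTB7A with 50 kb (adjusted p = 0.0516, exact permutation test). With 5 kb and with the gene body alone, LIN28B kept its r of -0.83 and p of 0.0254 (exact permutation test). Only its adjustment over all genes changed there. Leaving out 1 library left 1 to 4 called, with 1 without 0.31-T32, where 1670 of 14498 genes fell. The r of the titer trend turned to 0.289 (ZBTB7A) and 0.407 (IKZF1) by number of peaks and to 0.904 (ZBTB7A) by share of the list. In the normalized arm, r of ZBTB7A turned to 0.0264 and 0.185 at a -log10 q of at least 3 and 5, 0.147 in the full lists, 0.00494 with 50 kb on either side, 0.143 by rank and 0.162 by the longest peak, and ran from -0.652 to 0.416 when single libraries were left out. That of IGF2BP1 turned to -0.306 by number of peaks and that of IKZF1 to -0.926 by share. The matched difference turned to -48.2 (ZBTB7A) and -20.1 bp per Mb (IKZF1) by share and to -8.83 peaks (IKZF1). With all 7 amounts, 2 genes (LIN28B and IGF2BP1) passed after adjustment instead of 0, as did 4951 of 14881 genes in the same direction. The difference in slope turned by number of peaks to -0.000188 (ZBTB7A), -0.036 (LIN28B) and -1.5 (IKZF1), by share to -6.63 (ZBTB7A) and -6.8 (LIN28B) and by the longest peak to -25.8 (IGF2BP1). The cause of the other changes was not tested.

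The matched comparison paired libraries by amount of DNA_chrom. With no replicate block, that is without this pairing, 0 of the 4 genes passed after adjustment, while over all 14827 genes 3909 were higher and 51 lower, against 0 with it. Leaving out 1 pair leaves 5, which cannot give a p below 0.0625. Regions with a peak in all 14 lists numbered 10, 8 with nearby peaks merged and 7 at a -log10 q of at least 5. Motifs around peak summits were not run.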
